A study of Homo sapiens with 6 samples.

Results

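Gap junction connexins were followed in MCF10A cells after PDCD4 silencing and after control siRNA. The genes are GJB2, GJB5, GJB6 and GJA1, which make up 4 of the 17 connexin genes reported here and 4 of the 34486 genes in the tables. They were chosen by their summed counts in siPDCD4 against siCT, as connexins of the GJB and GJA groups, so their levels in this contrast are given as a description and carry no test. GJB2 was higher in every siPDCD4 library than in any siCT library, by 0.84 ± 0.14 (SE) on the log2 scale. GJB5 was abundant and overlapped between the groups, GJB6 was near 0 and GJA1 was listed at 0 in every library.

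Total RNA was sequenced as paired reads of 75 bases in 3 libraries of siPDCD4 cells and 3 libraries of siCT cells. In siPDCD4 cells, PDCD4, an RNA-binding tumour suppressor that inhibits translation, was silenced with 10 nM of siRNA delivered by lipofection, and siCT cells received a control siRNA in the same way. RNA was taken at 48 h. MCF10A is an immortalised, non-tumorigenic human breast epithelial line, labelled wild type in both groups and grown with horse serum, epidermal growth factor, insulin, hydrocortisone and cholera toxin. All 6 libraries come from this single line, with 1 siRNA product against PDCD4 and 1 time point, and no label says whether the replicates were separate cultures, so the error behind each p-value may be a technical one. In bulk RNA, fewer cells of a type and less RNA per cell cannot be told apart.

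Connexins are membrane-spanning proteins that oligomerise into hemichannels, and hemichannels of neighbouring cells dock to form gap junction channels that pass ions and small metabolites. In the mammary gland, Cx26 (GJB2) and Cx32 (GJB1) are known from luminal cells and Cx43 (GJA1) from myoepithelial cells. Cx26 and Cx30 (GJB6) are also the main connexins of the cochlear supporting cells, where their loss causes deafness, and Cx31.1 (GJB5) is a connexin of stratified epithelia such as epidermis.

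The promoters are shown as a description, and their part in the connexin levels was not tested. Each line gives the 250 bases just before the start of the gene, 5′ to 3′ on the gene's strand, from the RefSeq annotation of GRCh38.p14, with matches to the motifs searched in capitals. The windows are chr13:20192939-20193188 (minus strand) for GJB2, chr13:20230979-20231228 (minus strand) for GJB6 and chr6:121435396-121435645 (plus strand) for GJA1. The RefSeq starts of GJB6 and GJA1 lie inside the GENCODE spans given further on, and that of GJB2 is the same.
GJB2: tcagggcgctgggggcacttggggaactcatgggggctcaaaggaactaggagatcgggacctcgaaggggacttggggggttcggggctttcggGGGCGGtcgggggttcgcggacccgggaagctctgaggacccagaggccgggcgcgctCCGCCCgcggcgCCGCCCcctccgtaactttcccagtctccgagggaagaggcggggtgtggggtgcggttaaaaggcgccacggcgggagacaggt
GJB6: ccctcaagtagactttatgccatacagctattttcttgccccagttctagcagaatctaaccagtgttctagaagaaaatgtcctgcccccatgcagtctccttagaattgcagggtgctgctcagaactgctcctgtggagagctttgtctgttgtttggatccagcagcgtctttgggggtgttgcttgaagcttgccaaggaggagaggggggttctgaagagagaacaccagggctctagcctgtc
GJA1: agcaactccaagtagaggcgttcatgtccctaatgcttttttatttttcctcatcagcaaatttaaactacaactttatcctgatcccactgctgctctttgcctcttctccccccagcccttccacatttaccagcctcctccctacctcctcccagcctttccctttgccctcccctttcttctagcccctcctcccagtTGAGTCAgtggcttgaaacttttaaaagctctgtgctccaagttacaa
The motifs, read on both strands, were the AP-1 site TGANTCA, the GC box GGGCGG, the TATA box TATAAA and the E-box CAGGTG, and no match overlapped another. The GJB2 window held 3 GC boxes, whose first bases lay 155, 97 and 85 bases before the start, and its GC content was 70%. The GJA1 window held 1 AP-1 match, 48 bases before the start, with a GC content of 48%. The GJB6 window held none of these letters and had a GC content of 50.8%. Over all 35116 RefSeq promoters of this length, 42.6% held a GC box, 6.57% an AP-1 match, 10.7% a TATA box and 17.5% an E-box, and the median GC content was 58%. Windows were found for 10 connexin genes, and GJB5 was not among them. Of the 11 connexin windows, 3 (27.3%) held a GC box, those of GJB2, GJA3 and GJD2. GJD2 had 0 counts in every library. A match describes letters and says nothing of occupancy.

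Totals of estimated counts lay between 15547679 and 18619778 in the siPDCD4 libraries and between 13410441 and 21828931 in the siCT libraries. The library of siCT replicate 3 was the shallowest and stood apart from the other 5 on the first principal component. Libraries also differed in composition. The gene ENSG00000225840 took 10.7%, 14.4% and 11.6% of counts in the siPDCD4 libraries, against 5.72%, 10.1% and 16.0% in the siCT libraries. Protein-coding genes took 81.7%, 78.7% and 80.7% in the siPDCD4 libraries, against 86.4%, 82.5% and 76.2% in the siCT libraries. The part of this in the connexin levels was not tested. Levels are given as CPM after TMM normalisation, with an offset for transcript length. Counts were scaled by the library total times a TMM factor, which adjusts for differences in composition between libraries. PDCD4 itself had 9.15, 7.43 and 8.62 CPM in the siPDCD4 libraries, against 90.4, 89.0 and 61.1 CPM in the siCT libraries (log2 fold change -3.25 ± 0.17, adjusted p = 2.15e-05, edgeR quasi-likelihood test with Benjamini-Hochberg adjustment over 13047 genes). At an FDR of 5%, 56 genes changed, 22 of them higher and 34 lower in siPDCD4 cells. Markers of basal mammary epithelium (KRT5 and 5 others) summed to between 3741 and 4619 CPM in siPDCD4 libraries and between 3875 and 4473 CPM in siCT libraries. The 6 luminal markers summed to between 533.8 and 572.6 CPM in siPDCD4 libraries and between 518.3 and 634.3 CPM in siCT libraries, with PGR at 0. Most of this sum was KRT18 (367.2 CPM on average in siPDCD4 cells and 354.9 CPM in siCT cells) and KRT8. GATA3 averaged 5.03 CPM in siPDCD4 cells and 4.31 CPM in siCT cells. ESR1 (0.395 and 0.752 CPM) and KRT19 (0.108 and 0.124 CPM) were near 0 and not tested. Within these lists, TP63 of the basal markers was between 64.9 and 72.1 CPM in siPDCD4 libraries and between 50.8 and 54.3 CPM in siCT libraries (0.36 ± 0.09, adjusted p = 0.18, edgeR). KRT8 of the luminal markers was between 181.7 and 187.9 CPM in siPDCD4 libraries and between 206.5 and 249.2 CPM in siCT libraries (-0.32 ± 0.09, adjusted p = 0.225, edgeR). ITGA6 and GATA3 also had siPDCD4 libraries above all siCT libraries (0.19 ± 0.09 and 0.22 ± 0.20, adjusted p = 0.568 and 0.889, edgeR), and the other members of both lists overlapped between the groups. Over all tested genes, 6.81% had groups that did not overlap with siPDCD4 higher, and 7.14% with siPDCD4 lower. The general epithelial markers CDH1 and EPCAM summed to between 122.8 and 149.6 CPM in siPDCD4 libraries and between 120 and 145 CPM in siCT libraries, with EPCAM at 0.47 ± 0.16 (adjusted p = 0.384, edgeR) and overlapping groups. The part of these markers in the connexin levels was not tested. Fibroblast markers stayed between 2.51 and 3.4 CPM in siPDCD4 libraries and between 1.81 and 3.72 CPM in siCT libraries.

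GJB2, which encodes Cx26, lies on the minus strand at chr13:20187463-20192938 (ENSG00000165474, GRCh38). It had 22.2, 22.2 and 21.2 CPM in the siPDCD4 libraries, against 14.4, 11.6 and 10.5 CPM in the siCT libraries. The lowest siPDCD4 library was above the highest siCT library, and the siPDCD4 libraries lay closer together than the siCT libraries. Behind these levels stood 396, 317 and 343 counts in the siPDCD4 libraries and 298, 203 and 130 counts in the siCT libraries. The mean was 21.9 ± 0.57 CPM in siPDCD4 cells and 12.2 ± 2.03 CPM in siCT cells (SD, n = 3 each), a fold of 1.79. GJB2 was the 1 member of 4 past an FDR of 5% in edgeR, where 0.429% of all tested genes passed, 0.169% as higher and 0.261% as lower, and since this contrast chose the members nothing is read from that count. Likewise, 1 of the 2 members tested had groups that did not overlap with siPDCD4 higher, as had 6.81% of all tested genes. GJB2 passed the same threshold when siCT replicate 1 was left out, and not when any 1 of the other 5 libraries was left out, while the log2 fold change lay between 0.75 and 0.98. Without siCT replicate 3, the library that stood apart, it was 0.75.

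**Figure D1:**
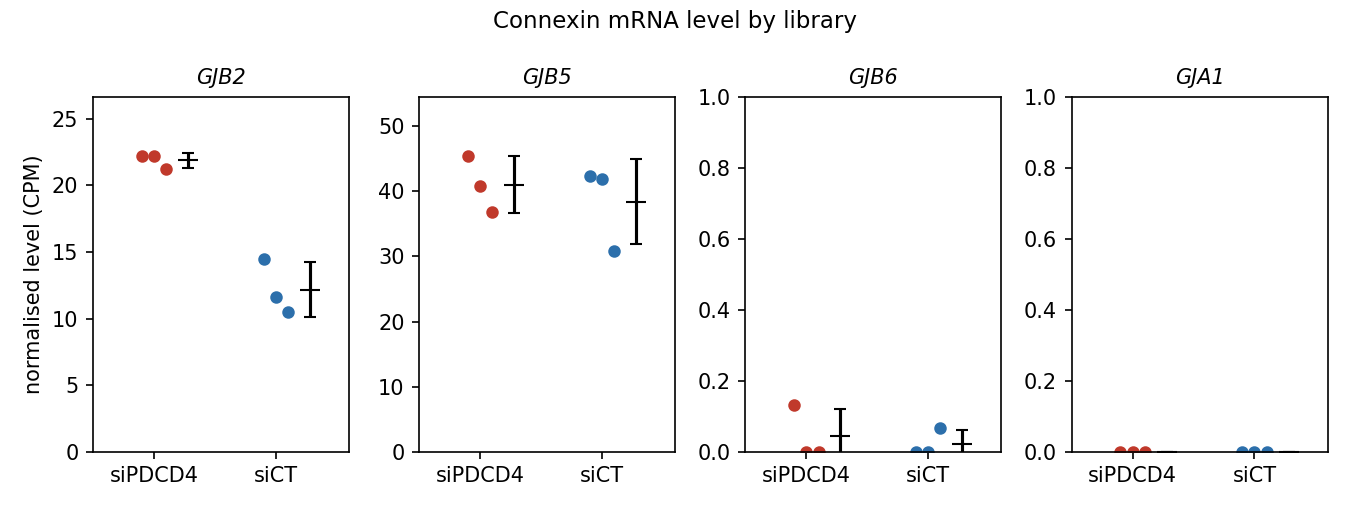
Level of the 4 connexin genes in each library. The y axis is CPM on a scale of its own for each gene, points are libraries of siPDCD4 (left, red) and siCT (right, blue), and the black bar is the mean ± SD of 3 libraries. GJB2 lies between 21.2 and 22.2 CPM in siPDCD4 libraries and between 10.5 and 14.4 CPM in siCT libraries, GJB5 overlaps, and GJB6 and GJA1 are at or near 0.

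Both annotated GJB2 transcripts are protein-coding and overlap in the same large exon. The spliced form GJB2-202 joins a first exon of 156 bases (chr13:20192783-20192938) to a second exon of 2134 bases (chr13:20187470-20189603). The form GJB2-201 is 1 unspliced exon (chr13:20187463-20189780), which shares 2134 bases with GJB2-202 and has 184 of its own. GJB2-202 had 21.3, 18.6 and 13.5 CPM in the siPDCD4 libraries, against 13.3, 11.6 and 8.92 CPM in the siCT libraries. Its groups did not overlap, but siPDCD4 replicate 3 was only just above siCT replicate 1. GJB2-201 took 4.08%, 16.1% and 36.6% of the gene's counts in the siPDCD4 libraries, against 7.88%, 0% and 15.1% in the siCT libraries. The share varied widely within each group (18.9% ± 16.4 in siPDCD4 and 7.66% ± 7.56 in siCT, SD, n = 3 each) and the groups overlapped. The 2134 shared bases do not tell the forms apart, so the split rests on the few bases that differ. For GJB2-202 alone, the ratio of group means was 0.66 on the log2 scale, below the 0.84 of the whole gene.

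**Figure D2:**
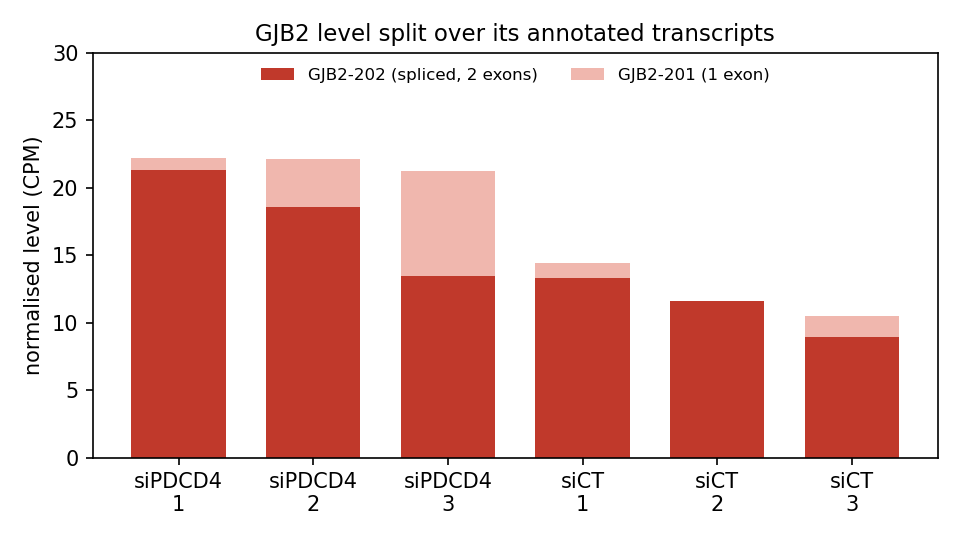
GJB2 level in each library, split over the 2 annotated transcripts. The y axis is CPM, bars are single libraries (siPDCD4 left, siCT right), dark red is the spliced GJB2-202 and light red the unspliced GJB2-201. The whole bar is near 22 CPM in all 3 siPDCD4 libraries, while its light part is widest, at 36.6% of the gene, in siPDCD4 replicate 3.

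GJB5, which encodes Cx31.1, lies on the plus strand at chr1:34755047-34758512 (ENSG00000189280) and has 1 listed transcript of 2 exons. It had 45.5, 40.8 and 36.8 CPM in the siPDCD4 libraries, against 42.4, 41.9 and 30.9 CPM in the siCT libraries. The groups overlapped, and the lowest value was that of siCT replicate 3. The mean was 41.0 ± 4.32 CPM in siPDCD4 cells and 38.4 ± 6.52 CPM in siCT cells (SD, n = 3 each), with a log2 fold change of 0.09 ± 0.14. Without siCT replicate 3 the log2 fold change was -0.04, so its sign depended on that library.

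GJB6, which encodes Cx30, lies on the minus strand at chr13:20221962-20232365 (ENSG00000121742), and its start is 39.4 kb from that of GJB2. It had 2, 0 and 0 counts in the siPDCD4 libraries, against 0, 0 and 1 counts in the siCT libraries. Of its 14 listed transcripts, 2 had any count. GJA1, which encodes Cx43, the most widely expressed connexin, lies on the plus strand at chr6:121435595-121449727 (ENSG00000152661). It had 0 counts in all 6 libraries, over all 4 listed transcripts, and its processed pseudogene GJA1P1, with which it shares sequence, also had 0. A count of 0 allows up to 3 counts, which is 0.161, 0.193 and 0.178 CPM (unadjusted for TMM) in the siPDCD4 libraries and 0.137, 0.162 and 0.224 in the siCT libraries, for counting error only. Neither gene passed the expression filter and no fold is given. GJA1 is thus listed at 0, although the basal keratin markers were abundant, and whether this reflects the cells or the quantification was not tested.

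The other connexins were read in the same fit. Of the 17 connexin genes reported here, 16 had transcripts in the tables, 5 were at 0 in every library (GJA1, GJA4, GJA9, GJD2 and GJE1) and 6 were tested. Among the 13 genes other than the members, 4 were tested and 0 passed an FDR of 5% in edgeR, with 2 at an unadjusted p under 0.05, where 8.62% of all tested genes (1125) stood, and 0 past the threshold in DESeq2. Of these 4, 2 had a log2 fold change above 0 and 2 below. Their median log2 fold change was 0.14, against -0.01 over all 13047 tested genes.

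GJA3, the lens connexin Cx46, had 15.7, 16.9 and 16.0 CPM in the siPDCD4 libraries, against 14.4, 12.6 and 12.0 CPM in the siCT libraries. Its groups did not overlap (log2 fold change 0.31 ± 0.13, edgeR adjusted p = 0.531). GJC1, which encodes Cx45 of the cardiac conduction system, had 33.6, 29.9 and 24.4 CPM in the siPDCD4 libraries, against 25.1, 19.8 and 24.4 CPM in the siCT libraries (0.34 ± 0.15, adjusted p = 0.535, edgeR). The groups overlapped through siPDCD4 replicate 3. The other tested connexins were low. GJA5 (Cx40 of atria and vessels) averaged 0.503 CPM in siPDCD4 cells and 1.01 CPM in siCT cells (-1.05 ± 0.50, adjusted p = 0.606, edgeR). GJB1 averaged 3.39 CPM in siPDCD4 cells and 3.51 CPM in siCT cells (-0.03 ± 0.27, adjusted p = 0.992, edgeR).

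**Figure D3:**
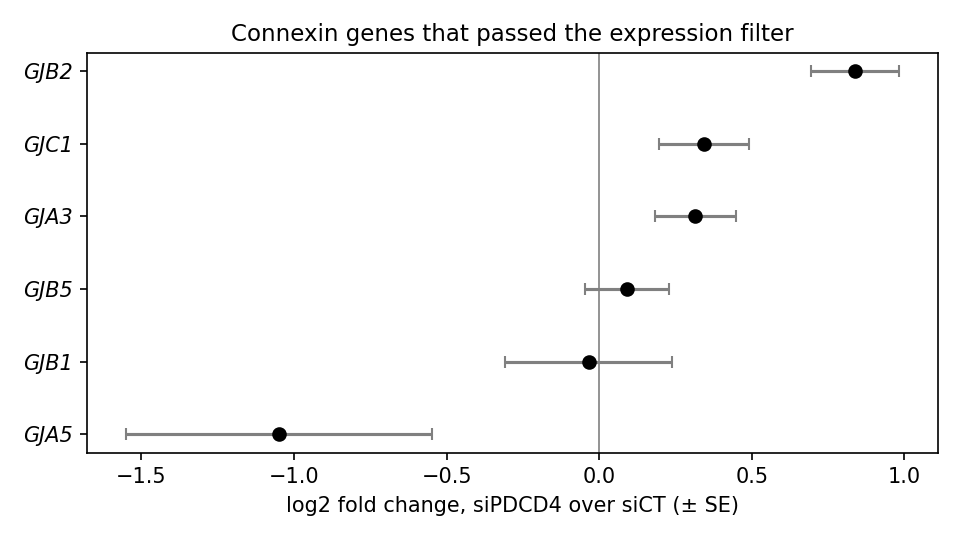
Log2 fold change of the 6 tested connexin genes, siPDCD4 over siCT, with bars of ± SE from the edgeR fit. GJB2 has the highest value at 0.84, GJC1 and GJA3 lie at 0.34 and 0.31, and GJA5, at 1.01 CPM or less on average, has the lowest value and the widest bar.

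Levels of different connexins were compared per length, in TPM, which divides reads by transcript length before scaling each library to the same total. GJB5 averaged 31.9 TPM in siPDCD4 cells and 29.5 TPM in siCT cells, above every other connexin reported here and without overlap with the next. GJB2 came next, with 9.62, 9.55 and 9.04 TPM in the siPDCD4 libraries, against 5.99, 5.14 and 4.34 TPM in the siCT libraries. It was followed by GJC1 at 5.72 TPM in siPDCD4 cells and 4.42 TPM in siCT cells. The ranges of GJB2 and GJC1 were apart in siPDCD4 cells and overlapped in siCT cells. GJA3 averaged 2.91 TPM in siPDCD4 cells and 2.30 TPM in siCT cells, and the others reported here averaged under 1 TPM in each group.

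**Figure D4:**
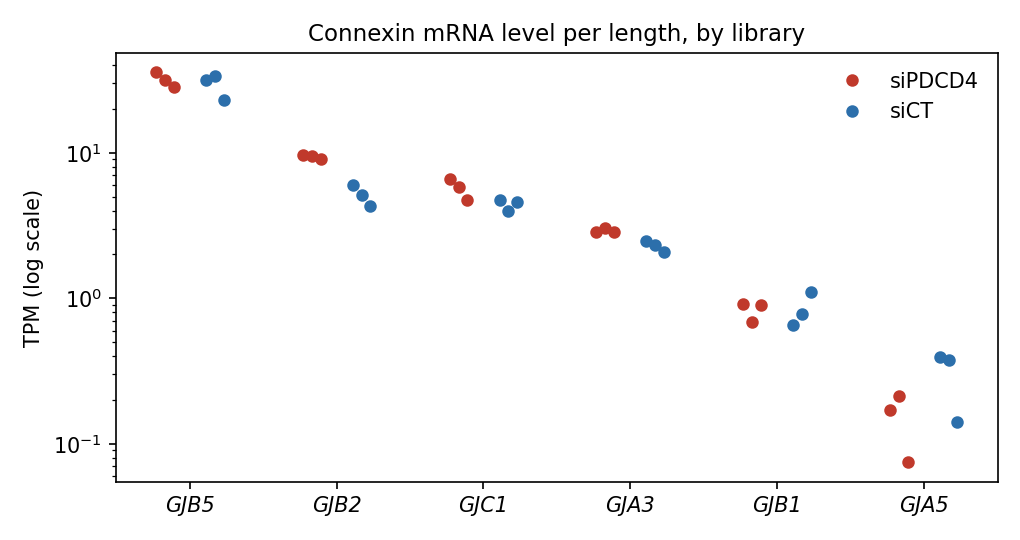
Level per length of the 6 tested connexins. The y axis is TPM on a log scale, and points are libraries of siPDCD4 (left of each pair, red) and siCT (right, blue). GJB2 lies between 9.04 and 9.62 TPM in siPDCD4 libraries and between 4.34 and 5.99 TPM in siCT libraries, and GJB5 lies above it in every library.

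Genes starting within 250 kb of any member were read too. Of 7 such protein-coding genes reported here, 4 were tested and 0 passed an FDR of 5% in edgeR, with 1 (GJA3) at an unadjusted p under 0.05 (8.62% of all tested genes) and 0 past the threshold in DESeq2. GJA3 starts 31.9 kb from GJB2. ZMYM2, a zinc finger gene 234.3 kb away, averaged 69.2 CPM in siPDCD4 cells and 73.9 CPM in siCT cells (-0.09 ± 0.11, adjusted p = 0.933, edgeR). On chromosome 1, GJA4 starts 38.0 kb from GJB5. TMEM35B, 230.3 kb from GJB5, averaged 6.09 CPM in siPDCD4 cells and 6.89 CPM in siCT cells (-0.19 ± 0.21, adjusted p = 0.929, edgeR). Near GJA1, the ciliary gene TBC1D32 had 5.82 CPM in siPDCD4 cells and 6.74 CPM in siCT cells on average (-0.21 ± 0.21, adjusted p = 0.914, edgeR). DLGAP3 and the unnamed gene ENSG00000284773 were below 1 CPM in every library and were not tested.

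Proteins that bind connexins or act on their trafficking, phosphorylation or turnover were taken as a list of 34 genes. All 34 were tested and 0 passed an FDR of 5% in edgeR, with 2 at an unadjusted p under 0.05, a smaller share than the 8.62% of all tested genes, and 0 past the threshold in DESeq2. Of these, 16 had a log2 fold change above 0 and 18 below, with a median of -0.02 against -0.01 over all genes. Groups did not overlap for 4 genes higher and 1 gene lower in siPDCD4 cells, where 6.81% and 7.14% of all tested genes did so. The lower gene was CAV1, caveolin of the membrane rafts in which connexins can reside, at 738.2, 804.8 and 683.6 CPM in the siPDCD4 libraries, against 1016, 924.4 and 808 CPM in the siCT libraries (-0.30 ± 0.10, adjusted p = 0.375, edgeR). The other with an unadjusted p under 0.05 was CDH2, the adhesion molecule N-cadherin (-0.33 ± 0.15, adjusted p = 0.562, edgeR). Next came CNST, the consortin that carries connexins from the Golgi to the membrane (0.21 ± 0.10, adjusted p = 0.582), and the kinase SRC, which phosphorylates Cx43 (0.33 ± 0.16, adjusted p = 0.594, both edgeR). Of the 3 pannexins, channel proteins unrelated to connexins in sequence, only PANX1 was tested and it did not pass, at 42.2 CPM in siPDCD4 cells and 40.1 CPM in siCT cells (0.07 ± 0.09, adjusted p = 0.953, edgeR).

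The genes most like GJB2 across the 6 libraries, by Pearson r of log2 CPM over 12248 genes, were CBX5, ZNF367 and AP3B2 (r of 0.994, 0.991 and 0.991). The 6 points share 2 groups and their depth, so this is a description. CBX5, a heterochromatin protein, lay between 298.9 and 311.2 CPM in siPDCD4 libraries and between 230.9 and 258.4 CPM in siCT libraries. ZNF367, a zinc finger gene, lay between 31.2 and 32.1 CPM in siPDCD4 libraries and between 23.8 and 25.8 CPM in siCT libraries. AP3B2, an adaptor subunit of vesicle traffic, lay between 3.13 and 3.31 CPM in siPDCD4 libraries and between 1.87 and 2.30 CPM in siCT libraries. Like GJB2, all of them had a narrow siPDCD4 range above the siCT range, as a high r with GJB2 selects for. Of all tested genes, 6.81% had groups that did not overlap with siPDCD4 higher. CBX5, ZNF367 and AP3B2 did not pass an FDR of 5% (adjusted p = 0.151, 0.273 and 0.5, edgeR). Their correlations with GJB2 by rank were 0.829, 1.000 and 0.829. Among the connexins, r with GJB2 was 0.975 for GJA3, 0.736 for GJC1 and 0.487 for GJB5. Of the 12248 genes, 49 had an r over 0.95 with GJB2. By rank, the correlation of GJA3 with GJB2 was 0.829. For GJB5 the most alike genes were the kinase MELK, the mitochondrial enzyme gene ECHS1 and the protease gene ZMPSTE24 (r of 0.999, 0.996 and 0.995), each with overlapping groups.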

How the data were processed

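Total RNA of 3 siPDCD4 and 3 siCT libraries was prepared by the authors with a stranded kit. The estimated counts per transcript, the TPM values and the effective lengths in bases were made by the authors with Salmon against GRCh38 transcripts and deposited as one table per library; the Salmon version and its strand setting are not given in the sources used here. Of 194142 transcripts, 181244 matched GENCODE release 44 by identifier, and the other 12898 (5.47% to 6.21% of counts) were not analysed here. Counts were summed to genes, rounded and put into edgeR 4.0.16 under R 4.3.3 (robust quasi-likelihood, TMM, filterByExpr, average length offset, Benjamini-Hochberg over 13047 genes, FDR of 5%). DESeq2 1.42.0 was an alternative, as were other filters, factors and omitted libraries. TPM was summed per gene. Errors after ± are SE for log2 fold changes and SD for levels and shares. The SE was derived from the edgeR test, as the absolute log2 fold change divided by the square root of its F statistic. The fit was tested on simulated data.

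The members and lists were chosen with earlier results of these data known. Some connexin and neighbouring genes are not reported here, and neither is the share of each connexin in the family total. Named genes were the members, PDCD4, other connexins with a mean of at least 0.1 CPM, neighbours with a value, up to 4 partners and pannexins with the smallest p, and the 3 genes most like each tested member (log2 of CPM + 0.5, mean of at least 1 CPM). Python 3.11.15, pandas 2.3.3 and matplotlib 3.10.9 were used.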

Additional observations from a re-analysis of the deposited data

How the results depend on the processing

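The contrast chose GJB2, so its values under other settings are a description and no sign of stability. In edgeR fits that each left out 1 library, its log2 fold change lay between 0.75 and 0.98, and the count of connexins past an FDR of 5% was 0 to 1. For the spliced transcript GJB2-202 alone, an alternative chosen after seeing the data, it was 0.66. The count of all genes past the threshold was 56, against 108 without a filter on low counts, 128 without the length offset, 193 in DESeq2 and 17 to 40 with 1 library left out. Replicate numbers did not meet the rule used for pairs, which asks for an r over 0.1 in every pair, and the main fit held no block. Between the same numbers r was 0.07, 0.12 and 0.18, each the highest for its siCT library. Between different numbers it was -0.19 to 0.10. Missing the rule does not exclude a pairing. With the number as a replicate block, 102 genes passed, among them all 56, and GJB2 was at 0.85. With 1 library left out, the log2 fold change of GJB1 lay between -0.19 and 0.22. Over GJA3, GJA5, GJB1 and GJC1 together, 49 of 51 alternatives kept the sign and 0 passed. The reversals were all of GJB1, without siPDCD4 replicate 2 (0.08) and without siCT replicate 3 (0.22). The causes of these shifts were not tested. The floor given for GJB6 and GJA1 covers counting error only.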

Other observations

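GJC1, the Cx45 gene, had its counts divided unevenly between transcripts GJC1-208 and GJC1-206, which differ little in length. GJC1-208 took 88.2%, 40.5% and 41.1% of the gene's counts in the siPDCD4 libraries, against 56.9%, 97.2% and 0% in the siCT libraries. GJC1-206 took 0%, 48.1% and 50.8% in the siPDCD4 libraries, against 25.9%, 0% and 88.2% in the siCT libraries. In siCT, each form was at 0 in one library and the leading form in another. Of the endothelial markers, PECAM1 had 1.18, 2.01 and 4.28 CPM in the siPDCD4 libraries, against 1.02, 0.987 and 1.01 CPM in the siCT libraries (1.28 ± 0.45, adjusted p = 0.405, edgeR). CDH5, the second marker, had 0 counts in all siPDCD4 libraries and 1 count in 1 siCT library, too few to show a change. The part of PECAM1 in the connexin levels was not tested.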
